A study of Brassica napus with 12 samples.

Results

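Mutant and WT plant types of rapeseed (Brassica napus) were compared in apical meristems, within a backcross and between its parental lines. The difference between the comparisons is described here gene by gene. The backcross effect is Slike minus Zlike, the parents' effect is SX3 minus ZS11, and the quantity tested is the backcross effect minus the parents' effect, all on the log2 scale. All 12 libraries of the series enter, 3 in each of the 4 groups, and 51650 of the 100919 genes with a count column had enough counts to be tested. Slike plants are individuals of the second backcross generation (BC2) labelled mutant, and Zlike plants are BC2 individuals labelled WT. SX3 is labelled a natural mutant, and ZS11 is the line labelled WT. The meristems of every group were taken from untreated plants grown at an experimental station, when inflorescence primordia give way to floral primordia. The labels do not say which parent the backcross was made to, nor whether a library holds 1 plant or several. What the p-values measure is then no more than the spread between the libraries of a group, part or all of which may be technical.

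A backcross mixes the genomes of its parents, so that individuals of opposite plant type share most of their background while the parental lines differ throughout. The apical meristem holds a small pool of dividing stem cells that gives rise to leaves, the inflorescence and flowers. Transcription factors of the MADS-box, homeobox, SBP and AP2 families direct these steps. The series title names a gene that controls inflorescence and plant architecture and gives it the name BnaSBT; which gene of the count table carries that name is not given in the sources used here.

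Total counts per library lay between 13445924 and 17778731, so that 3 counts correspond to 0.174 to 0.222 CPM (library-size-scaled counts, with scaling by the trimmed mean of M values). Floors of this kind cover counting error only. Meristem genes were present in every group. STM, the homeobox gene that maintains the shoot meristem, had a summed level over 4 copies of 120 ± 3.70 CPM in Slike, 144 ± 3.16 in Zlike, 147 ± 1.43 in SX3 and 268 ± 4.63 in ZS11 (SD, n = 3 each). WUS, which specifies the stem cell niche, averaged 2.72, 1.06, 2.79 and 1.00 CPM in the same order. KNAT1, also a shoot meristem gene, averaged 66.1, 74.6, 131 and 89.5 CPM, so that SX3 exceeded ZS11, opposite to STM. CLV3 averaged 1.26, 1.6, 1.12 and 0.821 CPM, with the parents overlapping. LFY, a floral meristem identity gene, was at 0.277, 0.163 and 0.147 CPM in Slike, Zlike and SX3, near or under the floor. LFY was at 0 in every ZS11 library. The floral meristem genes AP1 and CAL were above the floor in every group. AP1 averaged 14.8, 12.6, 8.44 and 6.1 CPM in the same order. CAL averaged 41.7 CPM in Slike, 21.3 in SX3 and 9.31 in ZS11, with Zlike libraries at 18.3 to 21.5. Genes used as markers of other tissues had counts as well, and whether those tissues contributed RNA was not tested. Green tissue markers (39 genes) summed to 3810, 3115, 2288 and 5855 CPM in Slike, Zlike, SX3 and ZS11, anther and tapetum markers (72 genes, 21 of them at 0 in all libraries) to 235, 179, 156 and 208 CPM, and petal and stamen markers (11 genes) to 227, 43.3, 81.1 and 3.10 CPM. Vascular markers (77 genes) summed to 238, 267, 280 and 320 CPM, and carpel and ovule markers (25 genes) to 78.4, 55.0, 60 and 53.4 CPM. In bulk tissue, fewer cells of a type and less RNA per cell cannot be told apart. Reads of homoeologs and other near-identical copies may have been split between genes, which adds an unknown error to the values of single copies. Gene names below are those of the best protein match in the table, so several copies can carry the same name.

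Far fewer genes differed between the backcross classes than between the parents. SX3 and ZS11 differ as lines as well as in plant type, and the parents' effect cannot tell these apart. At an adjusted p under 0.05 (edgeR's quasi-likelihood test with Benjamini-Hochberg adjustment), Slike and Zlike differed in 13817 genes, 26.8% of those tested, of which 2380 were at least 2-fold apart (4.61% of those tested). SX3 and ZS11 differed in 35179 genes (68.1%), of which 13852 were at least 2-fold apart (26.8%). By direction, 13.8% of tested genes were higher and 12.9% lower in Slike than in Zlike, and 32.7% were higher and 35.4% lower in SX3 than in ZS11. The effect itself differed between backcross and parents in 27515 genes (53.3%), with a positive difference in 15533 (30.1%) and a negative one in 11982 (23.2%). Over all tested genes the median absolute log2 effect was 0.18 in the backcross and 0.50 in the parents. The effects correlated across genes with a Pearson r of 0.432 (51650 genes, which are not independent replicates), and they were measured in separate libraries.

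The tests separated 4 patterns. A gene was counted as changed in the parents only when the parental lines differed at least 2-fold, the backcross classes were not called and the effects differed from each other. This held for 6727 genes (13.0% of those tested), 2434 higher in SX3 (4.71%) and 4293 lower (8.31%). Genes changed in the backcross only, defined the same way, numbered 289 (0.56%), 259 higher in Slike (0.501%) and 30 lower (0.0581%). In these classes the comparison that was not called can still hold an effect. Its absolute log2 effect was under 0.5 in 5746 of the 6727 genes and in 192 of the 289. In 94 genes (0.182%) both effects were at least 2-fold and opposite, with SX3 higher in 27 (0.0523%) and lower in 67 (0.13%). Fits on the 6 libraries of each comparison alone gave 56 such genes. A further 1596 genes (3.09%) changed at least 2-fold in the same direction. The limit of 2-fold falls in a dense part of the distribution. Among genes in or just beyond the parents-only class, 152 had absolute parents' effects of 1.00 to 1.02 on the log2 scale, and 154 that missed the limit had 0.98 to 1.00. Their median absolute backcross effects were 0.107 and 0.122.

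**Figure D1:**
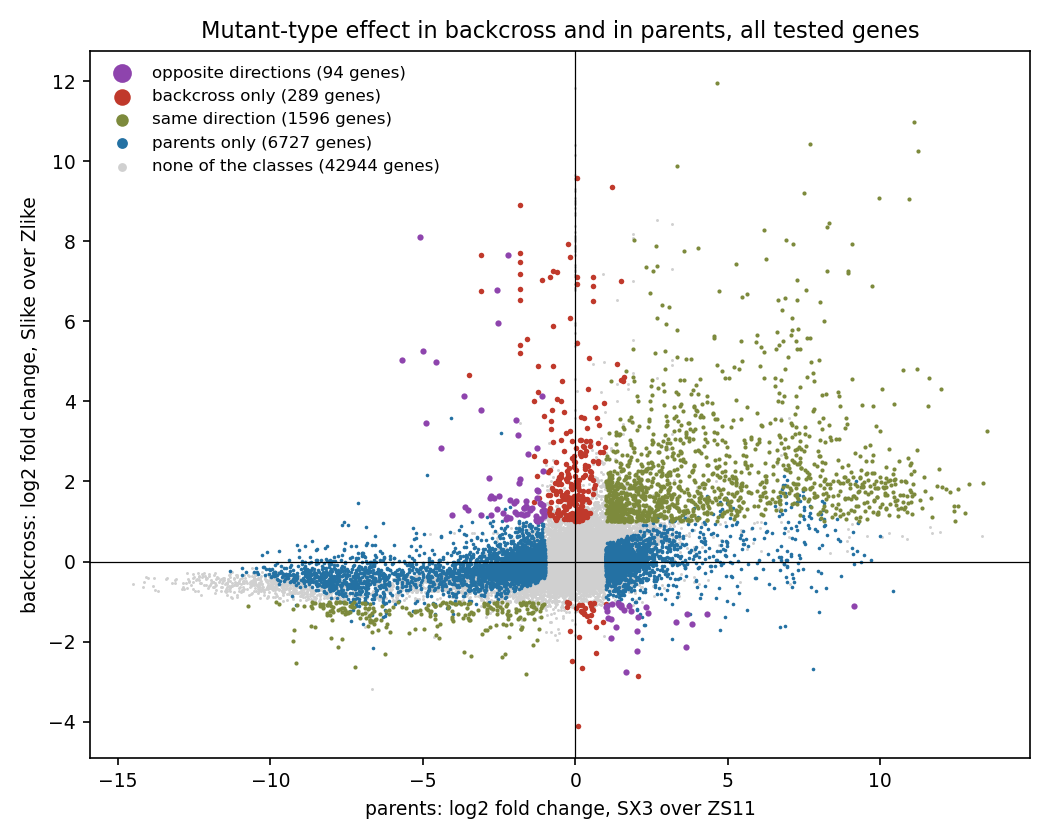
Backcross effect (Slike over Zlike, log2, vertical axis) against parents' effect (SX3 over ZS11, log2, horizontal axis), 1 point per tested gene, coloured by pattern. Genes changed in the parents only (6727) lie mostly along the horizontal axis, and the 289 changed in the backcross only mostly along the vertical axis. The 94 with opposite effects lie above left and below right of the centre.

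Of the 13852 genes that differed at least 2-fold between the parents, 48.6% were thus not called in the backcross and had a different effect there. A further 30.3% were called in the backcross in the same direction but under 2-fold, 11.5% were called in the same direction at 2-fold or more, and 2.02% were called in the opposite direction under 2-fold. For 952 genes (6.87%) the backcross was not called and the effects were not shown to differ. The view from the backcross was the reverse: of its 2380 genes, 67.1% moved the same way by at least 2-fold between SX3 and ZS11, and 12.1% belonged to the class changed in the backcross only.

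Genes changed in the parents only had backcross levels that mostly lay between the parents. The class requires parents at least 2-fold apart and an uncalled backcross, which in itself favours this. Both backcross means fell between the SX3 and ZS11 means for 1977 of the 2434 genes higher in SX3 (81.2%) and for 3217 of the 4293 genes lower in SX3 (74.9%). The backcross was nearer to ZS11 for 43.3% of the higher and 77.1% of the lower genes. Median levels of the higher genes were 3.19 CPM in Slike, 3.01 in Zlike, 5.29 in SX3 and 1.72 in ZS11, and those of the lower genes 2.80, 3.17, 0.978 and 4.37 CPM. In the lower class 618 genes had no count in any SX3 library, whereas in the higher class 98 had none in any ZS11 library. Gene IDs of the table end in ZS; whether reads of SX3 alleles were lost in mapping was not tested.

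The gene with the smallest p among those higher in SX3 only was a copy of APRR1 (also known as TOC1), an evening repressor of the plant clock, on C07 at 50405633 to 50408561. It had 58.0, 56.1 and 60.5 CPM in Slike, 56.9, 59.8 and 61.1 in Zlike, 74.3, 70.6 and 79.4 in SX3 and 1.85, 2.00 and 2.61 in ZS11. ZS11 alone was low, and the backcross classes overlapped. The log2 effect was -0.03 ± 0.05 (SE) in the backcross (adjusted p = 0.759) and 5.13 ± 0.09 in the parents, and the difference was -5.16 ± 0.11 (adjusted p = 7.47e-78). GRP10, a match to a glycine-rich RNA-binding protein, lies on A01 at 375001 to 375760. Its levels were 162, 183 and 175 CPM in Slike, 161, 179 and 176 in Zlike, 200, 194 and 178 in SX3, and 40.8, 38.3 and 39.7 in ZS11, again low in ZS11 alone. The backcross effect was 0.01 ± 0.03, the parents' effect 2.27 ± 0.04, and the difference -2.25 ± 0.05 (adjusted p = 2.01e-71). FSD1, an iron superoxide dismutase of the chloroplast, lies on A01 at 8654405 to 8657035 and showed the reverse picture, with SX3 alone high. It had 9.56, 8.24 and 8.21 CPM in Slike, 8.68, 10.9 and 9.80 in Zlike, 133, 128 and 122 in SX3 and 1.39, 1.48 and 2.61 in ZS11. The effects were -0.18 ± 0.11 in the backcross and 6.15 ± 0.09 in the parents, a difference of -6.33 ± 0.16 (adjusted p = 3.61e-68). MED36A, a match to fibrillarin, which methylates ribosomal RNA, lies on A08 at 21003059 to 21004508. With 199, 205 and 199 CPM in Slike, 204, 201 and 201 in Zlike, 336, 328 and 339 in SX3 and 112, 117 and 110 in ZS11, both backcross classes sat between the parents. Its difference of effects was -1.57 ± 0.04 (adjusted p = 5.35e-68).

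Among genes lower in SX3 only, the leading gene was a copy of LHY, a morning transcription factor of the clock, on C05 at 730759 to 734588. It had 33.1, 34.2 and 34.1 CPM in Slike, 36.9, 36.2 and 38.3 in Zlike, 1.92, 1.44 and 1.48 in SX3 and 165, 173 and 164 in ZS11. Slike lay slightly below Zlike without overlap, but this difference did not pass the test (-0.13 ± 0.06, adjusted p = 0.0648). The parents' effect was -6.70 ± 0.08 and the difference 6.56 ± 0.11 (adjusted p = 1.01e-88). PGIP1, an inhibitor of fungal polygalacturonases, lies on A01 at 33066662 to 33067924. Its levels were 408, 391 and 396 CPM in Slike, 398, 405 and 394 in Zlike, 156, 156 and 160 in SX3, and 621, 615 and 608 in ZS11. The backcross classes overlapped midway between the parents, and the difference of effects was 1.96 ± 0.03 (adjusted p = 1.87e-87). LHCB1.3, a chlorophyll-binding antenna protein of photosystem II, lies on A07 at 13799270 to 13800238. It had 46.0, 48.1 and 45.1 CPM in Slike, 50.6, 51.4 and 44.8 in Zlike, 8.27, 8.65 and 8.69 in SX3, and 178, 184 and 188 in ZS11. The backcross classes overlapped here too, and the difference was 4.34 ± 0.08 (adjusted p = 2.98e-84). SODCC, a copper/zinc superoxide dismutase, lies on A09 at 62938095 to 62939938. Its 105, 101 and 98.8 CPM in Slike, 92.2, 97.0 and 99.3 in Zlike, 34.2, 32.4 and 33.9 in SX3 and 181, 171 and 171 in ZS11 gave a difference of 2.46 ± 0.06 (adjusted p = 1.36e-73).

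**Figure D2:**
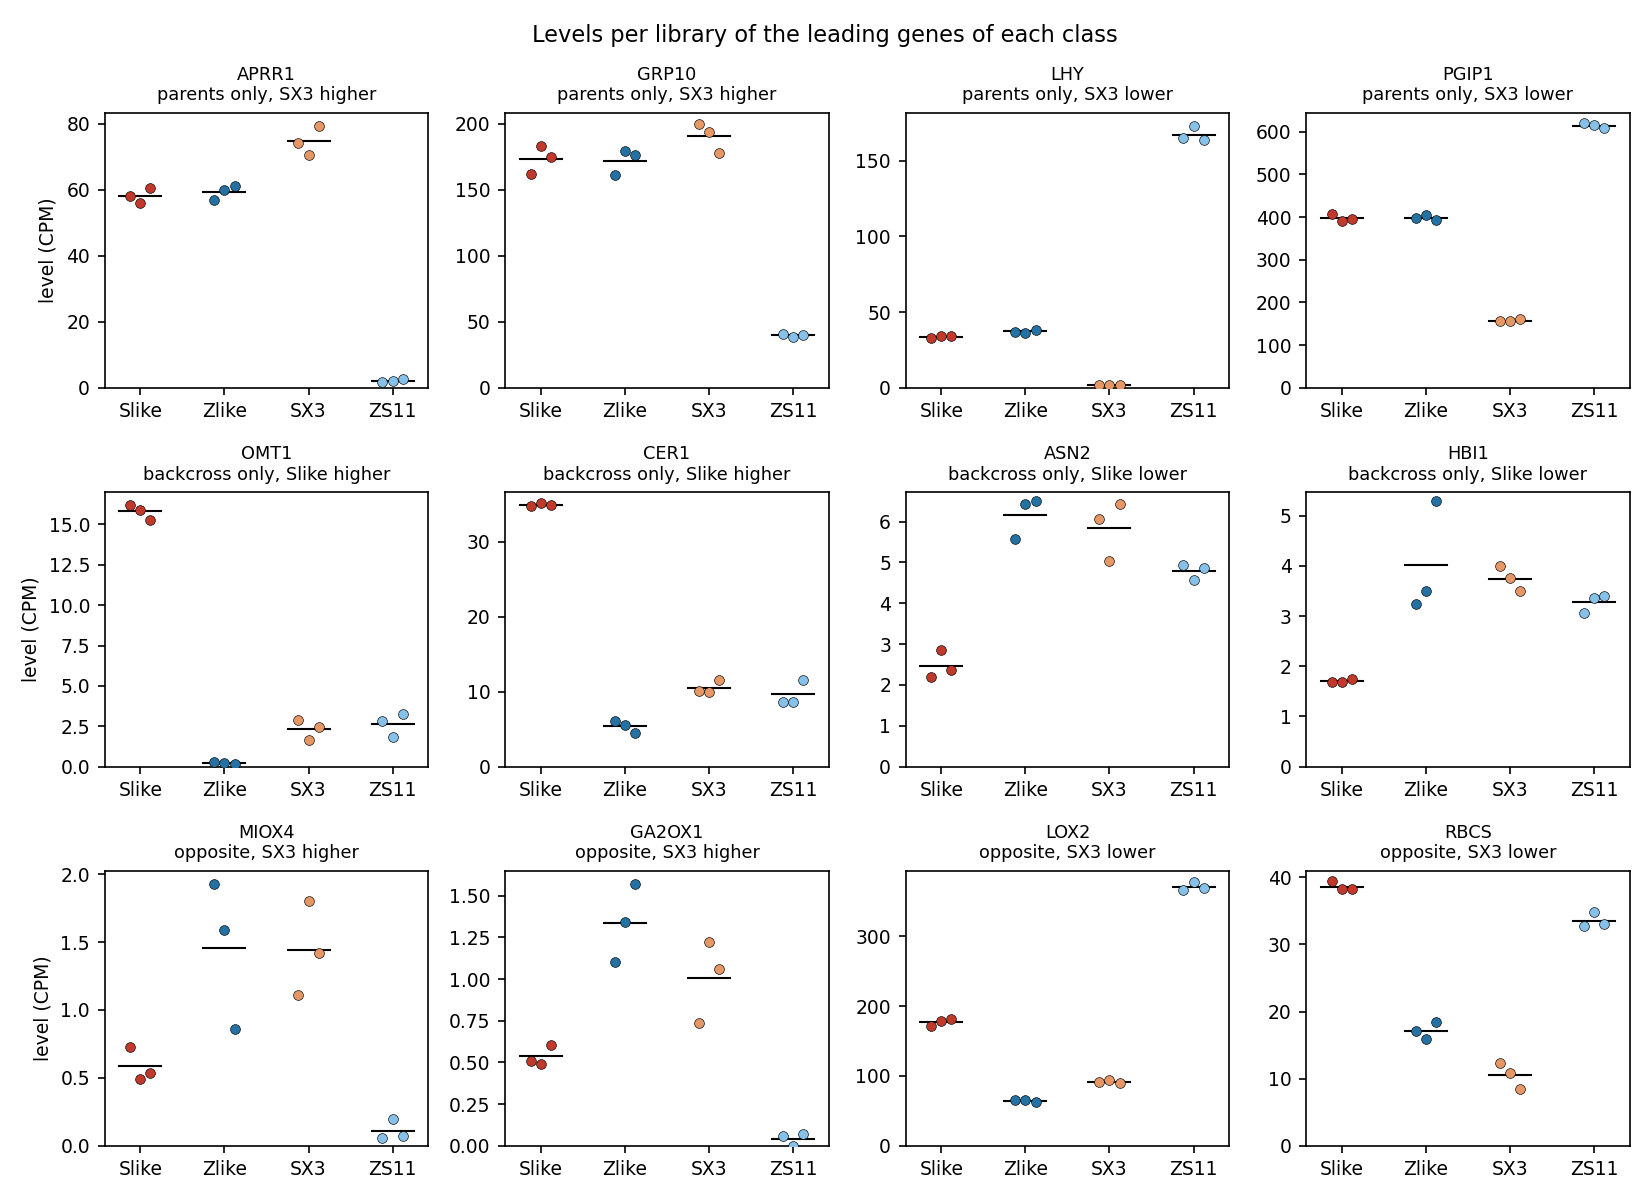
Level (CPM, linear axes from 0) of 12 genes in each library, ordered Slike, Zlike, SX3 and ZS11, with a bar at the group mean; the panels show the first 2 genes of each class and direction. APRR1, GRP10, LHY and PGIP1 were called between SX3 and ZS11 only, OMT1, CER1, ASN2 and HBI1 between Slike and Zlike only, although the uncalled pair does not overlap in LHY, ASN2 and HBI1; in MIOX4, GA2OX1, LOX2 and RBCS the order turns round.

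Both leaders belong to the circadian clock, in which morning factors (CCA1, LHY, RVE genes) and evening factors (APRR1, GI) repress or activate each other around the day. A list of 80 copies of 14 clock genes, drawn up after these leaders were seen, held 61 tested copies. Of these, 15 (24.6%) were higher in SX3 only, against 4.71% of all tested genes, and 10 (16.4%) were lower in SX3 only, against 8.31%. Between SX3 and ZS11, 24 of the 61 copies were higher and 30 lower, against 32.7% and 35.4% of all tested genes. Slike differed from Zlike in 2 higher and 11 lower copies, against 13.8% and 12.9% of all tested genes. No clock copy was changed in the backcross only or in opposite directions, classes that held 0.56% and 0.182% of all tested genes.

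The morning genes LHY and CCA1 were nearly silent in SX3. LHY summed over 9 copies was 94.3, 96.6 and 91.0 CPM in Slike, 111, 114 and 116 in Zlike, 5.54, 4.61 and 5.14 in SX3, and 505, 505 and 500 in ZS11. CCA1, the partner of LHY, summed over its pair of copies to 23.4 ± 1.22 CPM in Slike, 29.4 ± 0.882 in Zlike, 1.95 ± 0.468 in SX3 and 123 ± 2.32 in ZS11. In both sums Slike lay below Zlike without overlap, so the order was that of the parents with a far smaller step. RVE8, an activator related to LHY, averaged 8.71, 12.6, 2.26 and 42.0 CPM in Slike, Zlike, SX3 and ZS11, and 2 of its copies fell at least 2-fold in both comparisons. Of the related genes, RVE4 averaged 17.5, 18.8, 10.7 and 38.3 CPM, and RVE6 28.5, 30.5, 26.4 and 32.4 CPM, the mildest step between the parents among these RVE genes. APRR1, APRR5 and GI ran the other way between the parents. APRR1 summed over 4 copies was 121, 119 and 127 CPM in Slike, 118, 117 and 128 in Zlike, 153, 148 and 160 in SX3, and 4.98, 5.29 and 4.73 in ZS11. All 4 copies were in the class higher in SX3 only, and the backcross sums overlapped. APRR5, a repressor of the same family, averaged 53.5, 49.5, 44.6 and 4.84 CPM, and APRR9, the first of this family in the day, averaged 21.1, 22.7, 10.8 and 56.1 CPM. GI, an evening protein that also controls flowering time, averaged 128, 126, 85.9 and 61.1 CPM, above both parents in the backcross. ELF3, of the evening complex, differed little, at 51.9, 50.6, 52.6 and 46.1 CPM. The labels give no hour of collection, and the part of the hour in these differences was not tested.

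**Figure D3:**
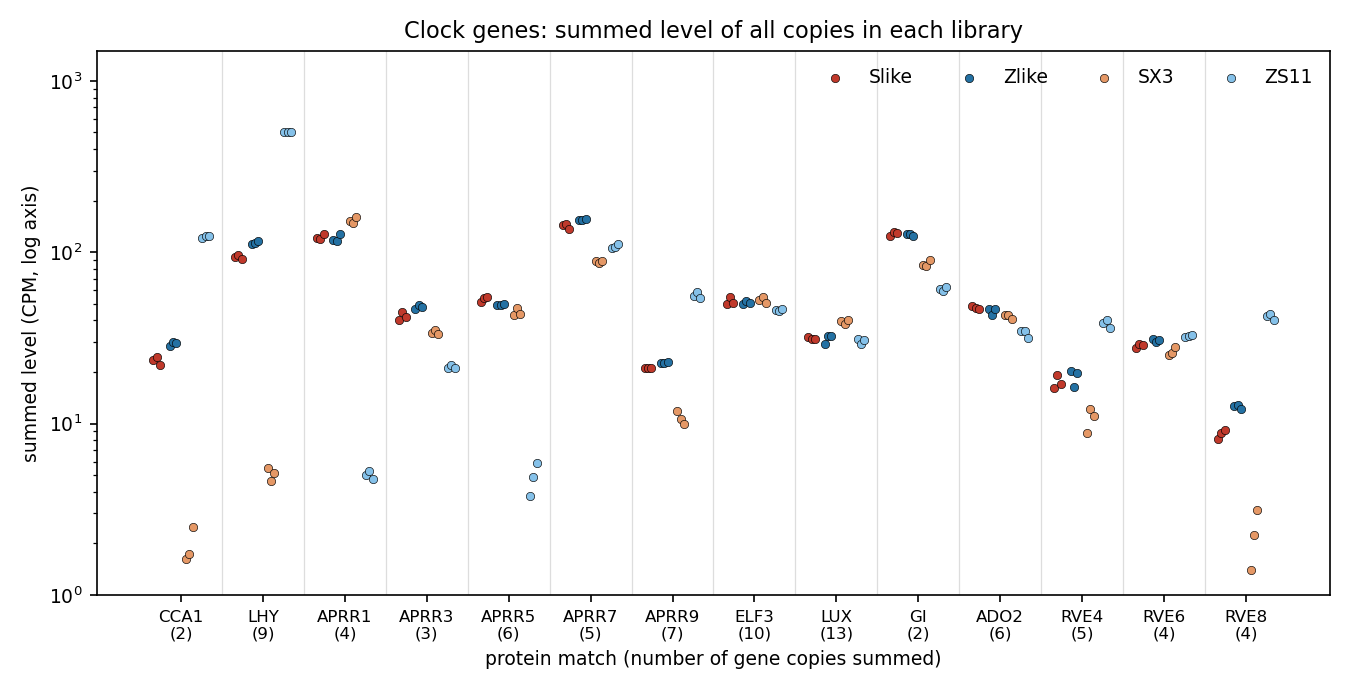
Summed level (CPM, log axis) of all copies of 14 clock genes in each library, with Slike, Zlike, SX3 and ZS11 from left to right in each gene. Slike and Zlike lie nearer to each other than SX3 and ZS11 for every gene, while SX3 is far below ZS11 for LHY, CCA1 and RVE8 and far above it for APRR1 and APRR5.

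Genes of protein synthesis were mostly higher in SX3 than in ZS11, with small backcross effects in the median. Of 1052 tested genes for ribosomal proteins, 800 were higher and 161 lower in SX3 (32.7% and 35.4% among all tested genes). Their median parents' effect was 0.69 on the log2 scale. In Slike 258 were higher and 171 lower (13.8% and 12.9% among all tested genes), with a median of 0.04. Their summed level was 74460, 75434 and 75210 CPM in Slike, 73661, 74848 and 74263 in Zlike, 94781, 93752 and 93551 in SX3, and 58561, 58739 and 58561 in ZS11. The backcross classes overlapped midway between separated parents. The difference of effects was negative in 717 of these genes and positive in 139, against 23.2% and 30.1% of all tested genes. As higher in SX3 only, 116 (11.0%) passed the 2-fold limit, against 4.71% of all tested genes. RPS3AB, a protein of the small ribosomal subunit, averaged 205 ± 2.72, 195 ± 9.26, 328 ± 2.57 and 135 ± 4.04 CPM in Slike, Zlike, SX3 and ZS11, a difference of effects of -1.21. The Pfam family that joins L15, L18e and L27A had 5 of 24 genes (20.8%) in the class higher in SX3 only; 23 of the 24 were higher in SX3 and none was lower. Its member RPL18B averaged 223, 217, 319 and 154 CPM.

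Core histones, which package newly made DNA, had 76 of 106 tested genes higher and 20 lower in SX3, at a median of 0.67, and 50 higher and 13 lower in Slike, at a median of 0.12. Among all tested genes 32.7% were higher and 35.4% lower in SX3, and 13.8% higher and 12.9% lower in Slike. The difference was negative in 69 histone genes and positive in 20, against 23.2% and 30.1% of all tested genes. In each direction 2 histone genes (1.89%, against 4.71% higher and 8.31% lower) were changed in the parents only. Pentatricopeptide repeat (PPR) proteins bind organelle RNA. Of 907 tested genes, 502 were higher and 132 lower in SX3 (median 0.48), against 45 higher and 47 lower in Slike; 117 (12.9%) were higher in SX3 only. The backcross median of this list, 0.02, changed sign with the scaling of libraries. PPR proteins with a DYW domain, which edit organelle RNA, led the Pfam families described for that class, with 32 of 152 genes (21.1%). Of the 152, 108 were higher and 19 lower in SX3. PCMP-H25, of the DYW group, averaged 4.54, 5.30, 20.2 and 2.94 CPM in Slike, Zlike, SX3 and ZS11. Among GO terms the highest share was in protein methylation, 7 of 23 genes (30.4%), of which 3 carried the PRMT5 domain. PMRT15, a match to an arginine methyltransferase of that family, averaged 18.7 ± 0.653, 18.5 ± 1.40, 27.1 ± 0.959 and 11.7 ± 0.679 CPM (SD, n = 3 each).

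**Figure D4:**
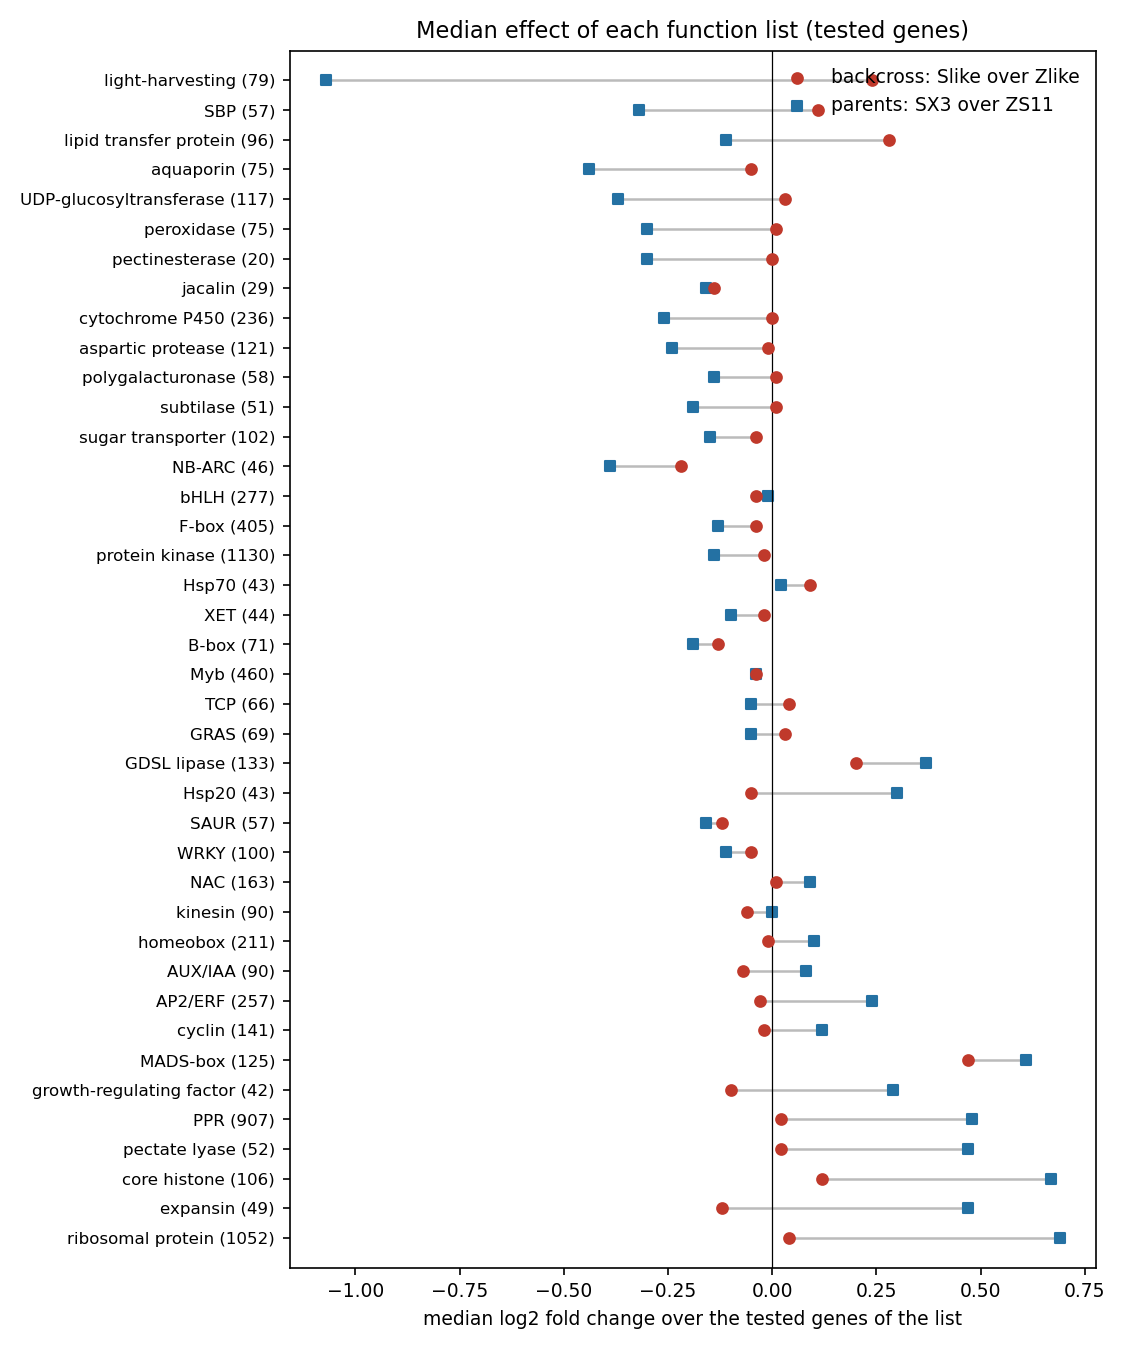
Median log2 effect of each gene list with 20 or more tested genes in the backcross (Slike over Zlike, red circles) and in the parents (SX3 over ZS11, blue squares), with lists ordered by the median difference of effects. Light-harvesting genes had medians of 0.24 and -1.07 and ribosomal protein genes 0.04 and 0.69; most backcross medians lie near 0.

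Further terms with raised shares in the class higher in SX3 only are given here, against 4.71% of all tested genes. The GO term phosphorelay response regulator activity, which covers cytokinin response regulators and clock APRR genes, had 14 of 75 genes in it (18.7%), of which 8 carried the CCT domain and 5 a receiver domain. ARR4, a cytokinin-induced response regulator, had 27.5, 27.0 and 25.4 CPM in Slike, 28, 32.5 and 28.6 in Zlike, 52.8, 50.5 and 53.0 in SX3 and 20.5, 19.2 and 20.7 in ZS11. SX3 alone was high, and the difference of effects was -1.53 ± 0.09 (adjusted p = 6.14e-32). Flavin monooxygenases, annotated as N,N-dimethylaniline monooxygenases and including the YUC enzymes of auxin synthesis, had 7 of 31 genes (22.6%) in the class and 4 (12.9%) lower in SX3 only. Their summed level was 71.9, 67.8, 96.5 and 115 CPM in Slike, Zlike, SX3 and ZS11, lower in SX3 than in ZS11. A copy of YUC4 averaged 3.12, 3.18, 2.63 and 0.959 CPM in Slike, Zlike, SX3 and ZS11, low in ZS11 alone. Proteins of the DUF702 family, to which the SHI-related auxin regulators belong, had 5 of 28 genes (17.9%); its member LRP1 averaged 11.6, 11.6, 26.7 and 7.54 CPM. Expansins loosen the cell wall, and 8 of 49 tested genes (16.3%) were higher in SX3 only while none was lower in SX3 only. EXPA1 had 12.0, 10.4 and 12.9 CPM in Slike, 9.92, 14.1 and 11.7 in Zlike, 38.9, 41.3 and 37.9 in SX3, and 7.30, 6.58 and 6.98 in ZS11, a difference of -2.52 ± 0.14 (adjusted p = 8.83e-35). The summed level of the expansin list did not share this direction, at 1340, 1560, 1731 and 1744 CPM in Slike, Zlike, SX3 and ZS11, with the parents overlapping. Pectate lyases, which cut pectin, had 9 of 51 genes (17.6%) in the class, among them PMR6 at 37.4, 35.2, 46.4 and 22.1 CPM. Papain-type proteases with the I29 propeptide had 6 of 31 (19.4%) in it and 4 (12.9%) lower in SX3 only. That family had 13 genes higher and 13 lower in SX3, against 32.7% and 35.4% of all tested genes. It summed to 631, 661, 648 and 1122 CPM in Slike, Zlike, SX3 and ZS11. Its member RD19A averaged 38.3, 39.0, 35.9 and 11.6 CPM. In the term sulfate transport 5 of 30 genes (16.7%) were in the class although the median parents' effect of the term was -0.27.

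Some genes known for roles in development were in this class. The shares of their families, against 4.71% of all tested genes, were 5.6% for MADS-box, 4.91% for NAC and 7.58% for homeobox. For F-box the share was 2.96%, and for GASA 8.33% (1 of 12 genes). In the MADS-box family 9 of 125 genes were lower in SX3 only and 7 higher. SVP, a MADS-box repressor of flowering, had a copy on A04 with 18.7, 16.7 and 17.6 CPM in Slike, 17.8, 17.0 and 18.6 in Zlike, 66.3, 71.8 and 73.1 in SX3, and 15.3, 13.7 and 13.9 in ZS11. SX3 alone was high, with effects of -0.01 ± 0.08 in the backcross and 2.30 ± 0.06 in the parents, and a difference of -2.31 ± 0.11 (adjusted p = 1.12e-42). UFO, an F-box protein that acts with LFY in floral identity, averaged 5.22 ± 0.363, 5.24 ± 0.363, 8.93 ± 1.15 and 2.46 ± 0.263 CPM in Slike, Zlike, SX3 and ZS11, a difference of -1.86. NAC054 (CUC1), which sets organ boundaries, averaged 3.81, 3.46, 6.12 and 1.45 CPM. HDG4, a homeobox gene of the HD-ZIP IV group, averaged 7.44, 6.20, 18.4 and 2.08 CPM. GASA4, a gibberellin-responsive peptide, averaged 50.9, 51.9, 98.2 and 16.1 CPM, and its difference of effects was -2.63. HAT5, a homeobox gene on A01, averaged 1.07, 1.04 and 7.04 CPM in Slike, Zlike and SX3 and had no count in ZS11, which makes SX3 at least 36.5-fold higher.

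The NF-YA family had the highest share of any described Pfam family among genes lower in SX3 only. NF-YA proteins form the DNA-contacting subunit that recognises CCAAT boxes, and 13 of 30 tested genes (43.3%) were in this class, against 8.31% of all genes. Of the 30 genes, 26 were lower and 1 was higher in SX3, at a median of -1.24, against 35.4% and 32.7% of all tested genes. In Slike 2 were higher and 2 lower, at a median of -0.16, against 13.8% and 12.9% of all tested genes. Their summed level was 120, 121 and 125 CPM in Slike, 132, 127 and 133 in Zlike, 81.9, 80.9 and 79.1 in SX3, and 200, 203 and 200 in ZS11. The backcross classes lay between the parents, Slike slightly lower than Zlike. NFYA4 had 5.69, 5.73 and 7.88 CPM in Slike, 8.47, 8.14 and 6.94 in Zlike, 3.69, 3.53 and 3.49 in SX3, and 19.5, 17.7 and 19.0 in ZS11, a difference of 2.11 ± 0.19 (adjusted p = 1.1e-19). A copy of NFYA8 had no count in SX3 and averaged 1.85, 2.56 and 2.84 CPM in Slike, Zlike and ZS11, which makes SX3 at least 13.8-fold lower than ZS11. B-box zinc finger proteins, which include CONSTANS-like regulators of flowering and light response, had 22 of 71 genes (31.0%) lower in SX3 only. The family was divided, with 34 genes lower and 26 higher in SX3, and 7 (9.86%, against 4.71% of all tested genes) higher in SX3 only. COL4 on C09 averaged 18.7 ± 0.870, 20.5 ± 0.367, 7.72 ± 0.390 and 55.2 ± 2.79 CPM, a difference of 2.70. COL10 on C02 went the other way, at 10.5, 12.4 and 18.0 CPM in Slike, Zlike and SX3, with 3 counts in all in ZS11.

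Antenna proteins of photosynthesis had effects of opposite sign in the median. Of 79 tested light-harvesting genes, 62 were lower and 12 higher in SX3 (median -1.07), against 35.4% and 32.7% of all tested genes. In Slike 53 were higher and 7 lower (median 0.24), against 13.8% and 12.9%. The difference of effects was positive in 70 and negative in 6 of them, against 30.1% and 23.2% of all tested genes. Summed over 90 genes, their level was 5240, 5211 and 5253 CPM in Slike, 4595, 4713 and 4548 in Zlike, 3519, 3501 and 3471 in SX3, and 8943, 8951 and 8969 in ZS11. The groups did not overlap, and the order of mutant and WT types turned round between backcross and parents. At the 2-fold limit, 13 genes (16.5%, against 8.31% of all tested genes) were lower in SX3 only. In opposite directions, lower in SX3 and higher in Slike, 2 genes changed (2.53%, against 0.13%). A further 6 (7.59%, against 2.61% of all tested genes) were higher in both comparisons. LHCB5, an antenna protein of photosystem II, averaged 66.5 ± 1.53, 68.9 ± 1.48, 35.1 ± 0.832 and 142 ± 1.02 CPM. The green tissue markers given above include antenna genes, so they overlap this list and are not independent of it. Their sums have the same order of groups, and 31 of their 35 tested genes had a positive difference. The part of green tissue in this result was not tested.

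**Figure D5:**
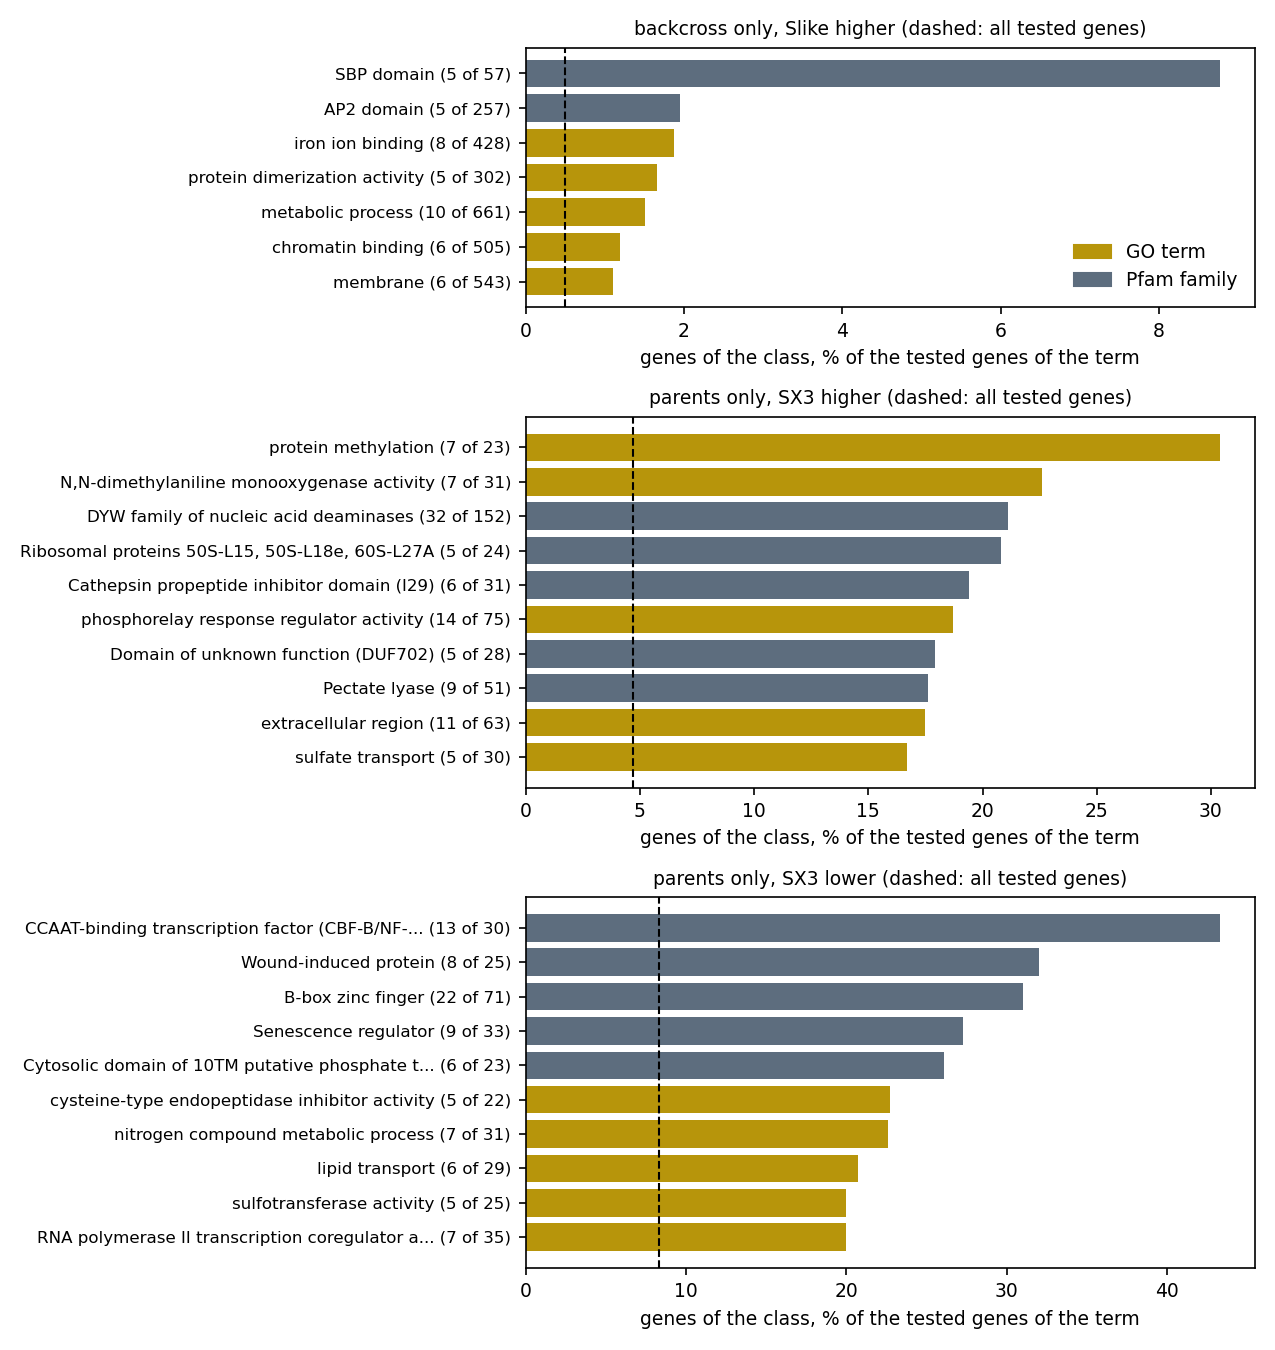
Share of tested genes in a class (percent, horizontal axes) for the leading GO terms and Pfam families, in panels for genes higher in Slike only, higher in SX3 only and lower in SX3 only; dashed lines mark the share among all tested genes (0.501%, 4.71% and 8.31%). Families that mostly repeated class members of a term already taken were passed over. NF-YA had 43.3% of its genes lower in SX3 only, protein methylation 30.4% higher in SX3 only, and the SBP domain 8.77% higher in Slike only.

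Further terms and families had raised shares in the class lower in SX3 only, against 8.31% of all tested genes. The Pfam family of wound-induced proteins had 8 of 25 genes (32.0%) in it. Of the 25, 19 were lower and 2 higher in SX3, against 35.4% and 32.7% of all tested genes. The family summed to 263 ± 3.35, 277 ± 7.32, 132 ± 3.66 and 257 ± 0.839 CPM in Slike, Zlike, SX3 and ZS11, so that SX3 alone was low. Senescence regulators had 9 of 33 (27.3%) and phosphate transporters of the 10TM type 6 of 23 (26.1%). Cystatins, which inhibit cysteine proteases, had 5 of 22 (22.7%) and the GO term nitrogen compound metabolic process 7 of 31 (22.6%). Sulfotransferases had 5 of 25 (20%), but also 4 (16%) higher in SX3 only, against 4.71% of all tested genes. Lipid transport had 6 of 29 (20.7%), although its summed level was higher in SX3, at 2193, 1581, 1658 and 1122 CPM in Slike, Zlike, SX3 and ZS11. CPA, an enzyme of polyamine synthesis in the nitrogen compound term, averaged 16.4, 18.7, 3.31 and 25.8 CPM. DIR1, a lipid transfer protein of systemic resistance, averaged 97.4 ± 3.43, 103 ± 4.84, 59.7 ± 2.83 and 169 ± 5.26 CPM, and its difference of effects was 1.41. SOT18, a sulfotransferase of glucosinolate synthesis, averaged 4.00, 3.02, 2.36 and 7.91 CPM. Cytochromes P450, oxidative enzymes of many pathways, had 44 of 236 genes (18.6%) lower in SX3 only and 16 (6.78%) higher, against 8.31% and 4.71% of all tested genes. CYP81F1 on A08, of indole glucosinolate metabolism, averaged 6.44, 8.08, 0.449 and 33.2 CPM. Aquaporins, the water channels, had 9 of 75 (12.0%, against 8.31%) lower and none higher in SX3 only. XTH6, a xyloglucan-modifying enzyme of the cell wall, averaged 32.0 ± 1.83, 32.7 ± 1.41, 15.0 ± 1.02 and 144 ± 2.42 CPM, a difference of 3.23.

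Some subunits of Mediator, which links transcription factors to RNA polymerase II, were lower in SX3 only. The GO term RNA polymerase II transcription coregulator activity had 7 of 35 genes (20%) in the class, against 8.31% of all tested genes. Of these 7, 3 carried the MED7 domain and 2 a Myb-like domain. The term as a whole had 9 genes higher and 13 lower in SX3, against 32.7% and 35.4% of all tested genes. It had a median parents' effect of 0.00 and a summed level of 918, 928, 923 and 838 CPM in Slike, Zlike, SX3 and ZS11, with the parents overlapping. MED7B on C02 had 5.99, 6.91 and 7.27 CPM in Slike, 6.89, 9.98 and 6.15 in Zlike, 0 in all 3 SX3 libraries and 9.10, 9.29 and 9.88 in ZS11, at least 46.0-fold lower in SX3. CRN, a receptor-like protein of the CLAVATA pathway that limits the meristem, averaged 5.48, 6.30 and 8.59 CPM in Slike, Zlike and ZS11 and had no count in SX3, at least 41.9-fold lower. AIL6, an AP2-type regulator of floral growth, averaged 3.57, 4.45 and 6.52 CPM and had no count in SX3, at least 31.8-fold lower. Backcross classes overlapped in MED7B and AIL6, and in CRN Slike was below Zlike without passing the test (adjusted p = 0.332). These 3 genes and CYS1, a cystatin, lie within the first 9 Mb of C02, where 611 of 655 tested genes differed at least 2-fold between the parents and the median parents' effect was -7.37. In that stretch the median backcross effect was -0.43, 210 genes (34.4% of the 611) were changed in the parents only and 11 changed at least 2-fold in the same direction. Beyond 34 Mb on A01, 156 of 222 genes (70.3%) changed at least 2-fold in the same direction and 31 (14.0%) in the parents only, with median effects of 1.38 in the backcross and 5.57 in the parents. By whole chromosome the share changed in the parents only was highest on A08 (57.8%) and lowest on A10 (29.0%), where 30.0% changed in the same direction.

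Flowering regulators lower in SX3 only included a copy of FLC, the MADS-box repressor of flowering that responds to cold. On A03 it had 19.6, 20.5 and 21.4 CPM in Slike, 23.4, 22.3 and 20.7 in Zlike, 9.83, 7.93 and 8.39 in SX3, and 18.2, 18.2 and 19.5 in ZS11. SX3 alone was low, and the difference of effects was 0.99 ± 0.12 (adjusted p = 8.73e-12). AGL14, a MADS-box gene, averaged 5.52, 6.23, 0.832 and 6.72 CPM. Some but not all SBP genes are targets of miR156, and some members of the family promote the adult phase or set inflorescence form. In the SBP family 7 of 57 genes (12.3%, against 8.31% of all tested genes) were in the class. Among them SPL2 averaged 9.42, 11.3, 1.76 and 12.5 CPM, SPL10 8.29, 7.57, 2.79 and 6.73 CPM, and SPL7, a copper sensor, 10.4, 11.2, 2.89 and 17.5 CPM.

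The SBP family also led the Pfam families among genes higher in Slike only, with 5 of 57 (8.77%) against 0.501% of all tested genes. Over the whole family 22 genes were higher and 5 lower in Slike, against 13.8% and 12.9% of all tested genes. In SX3, 12 were higher and 31 lower, against 32.7% and 35.4%. The difference of effects was positive in 34 genes and negative in 3, against 30.1% and 23.2%. The family summed to 1025, 1026 and 1014 CPM in Slike, 891, 872 and 877 in Zlike, 805, 798 and 810 in SX3, and 1032, 1049 and 1046 in ZS11, so that SX3 was the lower parent and Slike the higher backcross class, without overlap. SPL8, which acts in anther and bract development, had 15.8, 14.5 and 13.7 CPM in Slike, 5.10, 4.45 and 5.22 in Zlike, 7.39, 8.86 and 9.46 in SX3, and 9.74, 10.5 and 9.03 in ZS11. The parents overlapped, and both lay between the backcross classes. Its effects were 1.58 ± 0.12 in the backcross and -0.18 ± 0.12 in the parents, a difference of 1.75 ± 0.17 (adjusted p = 1.55e-17). SPL3, which promotes the floral transition, had 17.2, 20.3 and 22.2 CPM in Slike, 6.96, 6.48 and 7.08 in Zlike, 11.1, 8.43 and 10.2 in SX3, and 7.88, 9.42 and 8.89 in ZS11. Its difference was 1.36 ± 0.16 (adjusted p = 4.08e-13), and the parents again overlapped.

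Genes changed in the backcross only were mostly set apart by a high Slike, a low Zlike or both. The class requires Slike and Zlike at least 2-fold apart and the parents not called, which in itself favours this. Slike had the highest mean of the 4 groups in 227 of the 259 genes higher in Slike, and Zlike the lowest in 190. Median levels were 2.13 CPM in Slike, 0.474 in Zlike, 0.733 in SX3 and 0.818 in ZS11. The leading gene was OMT1, a match to an O-methyltransferase of phenolic compounds, on A10 at 15664906 to 15670941. It had 16.2, 15.9 and 15.3 CPM in Slike, 0.276, 0.254 and 0.143 in Zlike, 2.88, 1.66 and 2.48 in SX3, and 2.84, 1.81 and 3.25 in ZS11, with the parents overlapping between the backcross classes. The effects were 6.08 ± 0.24 in the backcross and -0.16 ± 0.21 in the parents, a difference of 6.24 ± 0.37 (adjusted p = 7.66e-33). CER1, an enzyme of wax alkane synthesis, lies on A09 at 65832114 to 65836706. It had 34.8, 35.1 and 34.9 CPM in Slike, 6.13, 5.53 and 4.51 in Zlike, 10.1, 9.94 and 11.5 in SX3, and 8.69, 8.65 and 11.6 in ZS11, a difference of 2.55 ± 0.15 (adjusted p = 3.34e-32). FBA2, a plastid aldolase, lies on C03 at 64856567 to 64858734 and differed by a low Zlike alone. Its levels were 24.1, 25.3 and 28.7 CPM in Slike, 6.68, 6.80 and 8.01 in Zlike, 28.7, 29.0 and 27.2 in SX3, and 25, 26.1 and 27.9 in ZS11, and the difference was 1.76 ± 0.12 (adjusted p = 8.02e-28). RD22, a dehydration-responsive gene, lies on A02 at 33298051 to 33300178 and differed mainly by a high Slike. It had 90.9, 86.9 and 93.3 CPM in Slike, 36.9, 38.1 and 34.4 in Zlike, 27.8, 26.6 and 27.3 in SX3, and 22.9, 28.6 and 24.9 in ZS11, a difference of 1.21 ± 0.08 (adjusted p = 1.02e-26).

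Some genes known from anthers or the epidermis were among those higher in Slike only. DYT1, a bHLH factor of tapetum development, averaged 5.78, 0.045, 0 and 0.0579 CPM in Slike, Zlike, SX3 and ZS11 from its A01 copy, and 4.23, 0.023, 0.0677 and 0.118 CPM from its C01 copy. Zlike and both parents averaged under the floor of 3 counts for both copies, and the call of the A01 copy was lost without ZS11 replicate 1. YLS3, a match to a lipid transfer protein, had 18.9, 19.5 and 19.5 CPM in Slike and at most 0.494 CPM in any other library, and its backcross effect was 7.61. Of 30 tested anther and tapetum markers, 21 were higher and 2 lower in Slike, against 13.8% and 12.9% of all tested genes. In SX3, 5 were higher and 8 lower, against 32.7% and 35.4%. In the class higher in Slike only were 5 (16.7%), against 0.501% of all tested genes. The part of these markers in the class was not tested. SPCH, the bHLH factor that starts the stomatal lineage, averaged 3.10 ± 0.288, 0.453 ± 0.328, 1.16 ± 0.149 and 0.890 ± 0.168 CPM. WIN1, an AP2-type activator of wax and cutin synthesis, averaged 2.72 ± 0.789, 0.253 ± 0.112, 1.12 ± 0.0783 and 0.650 ± 0.197 CPM; the AP2 family had 5 of 257 genes (1.95%) in the class. Lipid transfer proteins had 4 of 96 genes (4.17%) in it, among them LTP5 on A09 at 4.36, 0.757, 1.2 and 1.18 CPM.

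The 5 leading GO terms of this class covered enzymes, transcription factors and membrane proteins. Their shares stand against 0.501% of all tested genes. Iron ion binding, which covers most P450 enzymes, had 8 of 428 genes (1.87%), among them CYP89A2 at 7.75, 1.76, 3.02 and 3.62 CPM in Slike, Zlike, SX3 and ZS11. CYP707A1, which breaks down abscisic acid, averaged 1.28 CPM in Slike and had no count in Zlike, at least 6.27-fold higher in Slike, while SX3 and ZS11 held 0.024 and 0.0428 CPM. The term metabolic process had 10 of 661 (1.51%), of which 5 were UDP-glucosyltransferases. Protein dimerization activity had 5 of 302 (1.66%), all helix-loop-helix factors, chromatin binding had 6 of 505 (1.19%), of which 5 carried a Myb-like domain, and membrane had 6 of 543 (1.1%). UGT74C1, a glucosyltransferase, averaged 5.21, 0.400, 2.19 and 2.75 CPM, and AGT1, an aminotransferase of photorespiration, averaged 10.6, 2.07, 3.81 and 3.89 CPM. RPP2C, a match to a response regulator-like protein, averaged 24.4, 10.8, 6.54 and 5.42 CPM, with both backcross classes above both parents.

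In the class changed in the backcross only, 30 genes were lower in Slike, by at least 2-fold and with a difference that passed the test, and no GO term or Pfam family had 5 members among them. ASN2, an asparagine synthetase, lies on C03 at 39469505 to 39472443. It had 2.19, 2.86 and 2.36 CPM in Slike, 5.58, 6.42 and 6.51 in Zlike, 6.06, 5.04 and 6.44 in SX3, and 4.93, 4.58 and 4.87 in ZS11, a difference of -1.61 ± 0.23 (adjusted p = 8.14e-10). Slike alone was low, as it was for HBI1, a bHLH factor of growth and immunity on A07 at 1753077 to 1754509. HBI1 had 1.68, 1.68 and 1.75 CPM in Slike, 3.24, 3.50 and 5.29 in Zlike, 3.99, 3.75 and 3.49 in SX3, and 3.07, 3.36 and 3.39 in ZS11, a difference of -1.41 ± 0.29 (adjusted p = 1.06e-05). A copy of BIG, a large protein needed for auxin transport, lies on unplaced scaffold 1898 at 9351 to 11453. Its 0.219, 0.419 and 0.135 CPM in Slike, 0.689, 0.890 and 0.858 in Zlike, 0.739, 0.937 and 0.887 in SX3, and 0.579, 0.516 and 0.494 in ZS11 gave a difference of -2.31 ± 0.66 (adjusted p = 0.0018). RGP1, an enzyme that supplies arabinose to cell walls, lies on C05 at 57908760 to 57910576. It had 4.23, 3.07 and 3.97 CPM in Slike, 5.24, 5.09 and 15.3 in Zlike, 7.31, 10.6 and 12.1 in SX3, and 4.46, 9.49 and 16.9 in ZS11. The Zlike mean rested on its replicate 3, and the difference of -1.18 ± 0.29 (adjusted p = 0.00024) became -0.47 without that library and was no longer called.

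Where effects were opposite, most genes were lower in SX3 and higher in Slike. These 67 genes had median levels of 1.74 CPM in Slike, 0.560 in Zlike, 0.514 in SX3 and 1.78 in ZS11, so that the medians of Slike and ZS11 were close, as were those of Zlike and SX3. LOX2, the chloroplast lipoxygenase that starts jasmonate synthesis, led them, on C02 at 16204801 to 16208368. It had 171, 179 and 182 CPM in Slike, 64.8, 64.8 and 63.0 in Zlike, 90.9, 94.8 and 89.5 in SX3, and 366, 378 and 370 in ZS11. No groups overlapped; the effects were 1.46 ± 0.04 in the backcross and -2.02 ± 0.03 in the parents, and the difference was 3.48 ± 0.05 (adjusted p = 3.20e-101). RBCS, the small subunit of Rubisco, on A04 at 11923776 to 11924795, had 39.4, 38.2 and 38.3 CPM in Slike, 17.1, 15.9 and 18.5 in Zlike, 12.3, 10.9 and 8.51 in SX3, and 32.7, 34.8 and 33.0 in ZS11. Its effects were 1.17 ± 0.07 and -1.68 ± 0.08, and the difference was 2.86 ± 0.11 (adjusted p = 6.21e-50). CYP83A1, a P450 of aliphatic glucosinolate synthesis on A04 at 6082370 to 6083995, had 19.5, 19.2 and 19.3 CPM in Slike, 7.85, 7.5 and 8.44 in Zlike, 20.3, 18.8 and 18.1 in SX3, and 52.1, 53.0 and 53.3 in ZS11. Slike overlapped SX3 in level, and the difference of effects was 2.76 ± 0.11 (adjusted p = 4.83e-47). JP650, a match to the non-catalytic subunit of a polygalacturonase, lies on A07 at 25204516 to 25206782. Its 11.3, 9.08 and 10.2 CPM in Slike, 3.44, 4.20 and 2.86 in Zlike, 9.75, 9.65 and 8.98 in SX3, and 40.7, 41.9 and 40.8 in ZS11 gave a difference of 3.65 ± 0.16 (adjusted p = 3.59e-45).

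Iron ion binding was the leading GO term of this class, with 7 of 428 genes (1.64%), 4 of them P450 enzymes, against 0.13% of all tested genes. CYP81F1 on A01 averaged 2.03, 0.0468, 0.0246 and 0.988 CPM in Slike, Zlike, SX3 and ZS11. CAB1, a light-harvesting protein on C04, had 6.21, 6.29 and 7.00 CPM in Slike, 1.45, 2.86 and 2.43 in Zlike, 1.18, 1.37 and 1.60 in SX3, and 5.51, 4.52 and 6.00 in ZS11. Both effects of CAB1 were clear of the replicate spread, at 1.52 ± 0.18 in the backcross and -1.93 ± 0.21 in the parents. PER9, a class III peroxidase on C06, had 48, 45.8 and 43.3 CPM in Slike and at most 0.406 CPM in any other library. It entered the class through 13 counts in ZS11 against none in SX3, at least 1.31-fold lower in SX3. The A03 copy of CSLG3, of the cellulose synthase superfamily, averaged 3.19, 1.25, 0.509 and 1.39 CPM, and LTP5 on C08 averaged 2.66, 0.681, 0.244 and 0.901 CPM. The C03 copy of SOC1, a MADS-box integrator of flowering signals, averaged 0.807 ± 0.363, 0.301 ± 0.215, 0.397 ± 0.163 and 0.907 ± 0.197 CPM, a difference of 2.57 (adjusted p = 0.000743).

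The 27 genes higher in SX3 and lower in Slike had low levels, with medians of 0.484 CPM in Slike, 1.16 in Zlike, 1.64 in SX3 and 0.485 in ZS11. PAO2, a polyamine oxidase on C03 at 15084036 to 15086590, had 1.1, 1.61 and 1.55 CPM in Slike, 3.24, 2.48 and 3.43 in Zlike, 1.70, 2.74 and 3.25 in SX3, and 0.695, 0.968 and 1.13 in ZS11. Its difference was -2.58 ± 0.38 (adjusted p = 1.92e-09). MIOX4, an inositol oxygenase that feeds cell wall sugars, on A03 at 27275759 to 27278755, had 0.730, 0.489 and 0.539 CPM in Slike, 1.93, 1.59 and 0.858 in Zlike, 1.11, 1.80 and 1.42 in SX3, and 0.0579, 0.194 and 0.0705 in ZS11. ZS11 alone was near or under the floor, and the difference was -4.98 ± 0.66 (adjusted p = 5.03e-11). GA2OX1, which inactivates gibberellins, lies on C03 at 12698694 to 12700811. It had 0.511, 0.489 and 0.606 CPM in Slike, 1.1, 1.34 and 1.57 in Zlike, 0.739, 1.22 and 1.06 in SX3, and 0.0579, 0 and 0.0705 in ZS11. The backcross effect was -1.30 ± 0.39, and the difference passed the test (adjusted p = 4.13e-10), but its size depends on the prior count because ZS11 was under the floor. TPS10, a match to a terpene synthase on C03 at 18121864 to 18129179, had 0.584, 0.419 and 0.404 CPM in Slike, 1.17, 1.21 and 0.715 in Zlike, 2.51, 2.74 and 1.95 in SX3, and 0.406, 0.516 and 0.494 in ZS11, a difference of -3.46 ± 0.54 (adjusted p = 1.18e-08).

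Floral organ genes had a raised share among genes that differed in the same direction in both comparisons. Of the 1596 genes changed at least 2-fold in the same direction, 1348 were higher (2.61% of those tested) and 248 lower (0.48%) in the mutant type. Their median absolute effect was 1.68 in the backcross and 3.79 in the parents. The effects themselves differed in 910 of them, smaller in the backcross in 857 and larger in 53. MADS-box genes, many of which specify floral organs, had 42 of 125 tested genes (33.6%) higher in both, against 2.61% of all tested genes, and all 10 tested petal and stamen markers were in this class. Proteins with a K-box had 29 of 95 and B3 DNA-binding proteins 20 of 145. Manganese ion binding, here the cupins, had 9 of 22, and lipid metabolic process 22 of 216, of which 20 were GDSL lipases.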

How the data were processed

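RNA-seq libraries of apical meristems from 4 groups of 3 were analysed, grouped by sample title. The authors deposited raw read counts per gene, whole numbers without normalization, per the file headers; the submitters' processing notes name fastp, HISAT2 and featureCounts. Versions, settings, strand use, handling of multi-mapped reads and genome build: not given in the sources used here. Overlapping, antisense and near-identical genes may share reads. Coordinates are those of the deposited table.

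Counts were tested with edgeR 4.0.16 (limma 3.58.1, R 4.3.3): genes kept by filterByExpr, trimmed mean of M values (TMM) scaling, and 1 quasi-likelihood fit over all 12 libraries with 3 two-sided contrasts, Slike minus Zlike, SX3 minus ZS11 and their difference, each adjusted by Benjamini-Hochberg over all 51650 tested genes. Calls required an adjusted p under 0.05, and classes also required 2-fold. Levels are TMM-scaled CPM. Log2 effects used a prior count of 0.125; SE came from the fitted effect and its statistic. A group at 0 gives a fold bound against 3 counts per library, and a group with 1 to 3 counts gets levels only. The fit was tested on simulated data.

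The table gives each gene at most 1 GO ID and 1 Pfam name, so families are undercounted. GO terms were named from the GO vocabulary. Gene symbols are those of the best Swiss-Prot match. For each class direction up to 5 GO terms and 5 Pfam families with the highest share were described. They came from those with at least 20 tested genes and 5 members in the class. GO terms were taken first, and a term or family that mostly repeated class members already taken was passed over. Named genes were the 4 with the smallest p for the difference in each class direction, without overlap between groups, and up to 3 members of each term or list; among these a selection is printed. Only matches to mustard family proteins were named, locus codes were passed over, and these refinements and the clock and meristem lists were chosen after values were seen. The contrast, lists and members were chosen with earlier results of these data known, so lists are described without tests. Alternatives were other scaling, DESeq2 1.42.0, no filter, other class limits, separate fits, a replicate block, leaving out each library and leaving out 4 chromosome stretches.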

Additional observations from a re-analysis of the deposited data

Results flagged for a closer look

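The backcross effect and the parents' effect differed, by the test of that difference, in 27515 genes. Of these, 6727 belonged to the class changed in the parents only, 289 to that changed in the backcross only and 94 to that with opposite directions. For the genes that lead each class, the difference (backcross effect minus parents' effect, log2) was as follows. Among genes higher in SX3 only it was -5.16 for APRR1, -2.25 for GRP10, -6.33 for FSD1 and -1.57 for MED36A. Among genes lower in SX3 only it was 6.56 for LHY, 1.96 for PGIP1, 4.34 for LHCB1.3 and 2.46 for SODCC. Genes higher in Slike only gave 6.24 for OMT1, 2.55 for CER1, 1.76 for FBA2 and 1.21 for RD22, and genes lower in Slike only gave -1.61 for ASN2, -1.41 for HBI1, -1.18 for RGP1 and -2.31 for BIG. With SX3 higher and Slike lower it was -4.98 for MIOX4, -5.63 for GA2OX1, -2.58 for PAO2 and -3.46 for TPS10; the value of GA2OX1 depends on the prior count. With SX3 lower and Slike higher it was 3.48 for LOX2, 2.86 for RBCS, 2.76 for CYP83A1 and 3.65 for JP650. These genes were picked for the size of their evidence, so their values are at the extreme of the table.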

How the results depend on the processing

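No gene named by the rule reversed its direction under any alternative run, and 31 of 293 lost the call of the difference under at least 1 of them, RGP1 among the leading genes (-1.17 by DESeq2). The count of genes whose effects differed (27515) was 24099 by DESeq2, of which 24032 were shared, 27541 with DESeq2 size factors, 27704 with upper-quartile scaling and 25537 without 4 chromosome stretches. With class limits of 0.58 on the log2 scale in place of 1, genes changed in the parents only numbered 11472 in place of 6727, in the backcross only 490 in place of 289, in opposite directions 286 in place of 94, and in the same direction 3278 in place of 1596. Fits on the 6 libraries of each comparison gave 56 genes with opposite effects. With an effect under 0.5 on the log2 scale, called or not, in place of an uncalled one, 8268 and 221 genes were changed in the parents only and in the backcross only. Of the 6727 and 289 genes of the main classes, 5746 and 192 were among them. Leaving out 1 library at a time gave 26470 to 26785 genes whose effects differed, 6757 to 7454 changed in the parents only, 283 to 332 in the backcross only, 81 to 99 in opposite directions and 1545 to 1624 in the same direction. Membership moved more than these totals. The fewest genes shared with the main class were 6230 (92.6%) in the parents only, 224 (77.5%) in the backcross only, 68 (72.3%) in opposite directions and 1394 (87.3%) in the same direction. The replicate block gave 27396 genes whose effects differed. Replicate numbers did not pair libraries: deviations from group means correlated at -0.0322 to 0.0142 for equal numbers (18 pairs) and -0.0180 to 0.0223 for unequal ones (36 pairs). Libraries of a group differed by more than sampling noise, at a chi-square per gene of 1.354 to 1.474. Counts of members within functions moved by more than 1.5 times in 112 of the values under alternatives and stayed within it in 2198. The cause of these shifts was not tested, except that lower limits admit more genes by construction. At 13445924 counts in the smallest library, effects of genes near 0.2 CPM were not detectable.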
